A study of Mus musculus with 4 samples.

Results

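Calmodulin, the CaM kinases and calcineurin are the proteins through which a neuron reads a rise in calcium. The genes described here are 9 listed members of that system: Camk2a, Camk2b, Camk2d, Camk2g, Camk4, Calm2, Calm3, Ppp3ca and Ppp3cb. They were looked up by gene symbol in the platform's annotation, and every probe set that carried a single symbol equal to a listed name was taken. This found 8 probe sets, of 12488 on the array, for 7 of the 9 genes, with Camk2a represented by 2 of them. For Camk2g and Calm3 no probe set met the rule, and they were not analysed here. A probe set is a group of short probes, in most cases annotated to 1 gene, and its summarised brightness is the intensity reported below. The rule uses no measured value.

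The RNA was total RNA of hippocampal CA1, taken from C57BL/6J mice that were young and male. All 4 samples are controls: the animals were handled, no shock or other treatment was given, and the labels name no mutation or transgene. The samples differ in the hour of RNA extraction, which was 1, 2, 4 or 6 hr after other mice had received their final shock, and each hour has 1 array. The shocked mice themselves were not analysed here. Whether an array holds 1 mouse or a pool is not stated in the labels.

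Calcium entering through NMDA receptors and voltage-gated channels binds calmodulin, a small protein encoded by several genes with the same product. Calcium-loaded calmodulin then switches on enzymes of opposite effect: the CaM kinases, which add phosphate groups, and calcineurin, a phosphatase that removes them. CaM kinase II, a ring of alpha, beta, gamma and delta subunits, is concentrated at excitatory synapses and is required for long-term potentiation in CA1. CaM kinase IV acts in the nucleus on the transcription factor CREB, and calcineurin takes part in long-term depression and activates NFAT transcription factors.

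On these arrays the readings fell into 3 ranges. Ppp3ca and Camk2b were among the brightest probe sets of every array, Ppp3cb and Calm2 were in the middle, and both Camk2a probe sets, Camk4 and Camk2d were dim. No member passed the test of a straight-line change with the hour. The widest gap between 1 array and the rest was at 6 hr, where Camk4 and 1 Camk2a probe set read over 2-fold lower than on each other array. Probes bind with different strength, so a brighter probe set does not show a more abundant transcript, and the order of the members is an order of readings only.

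**Figure D1:**
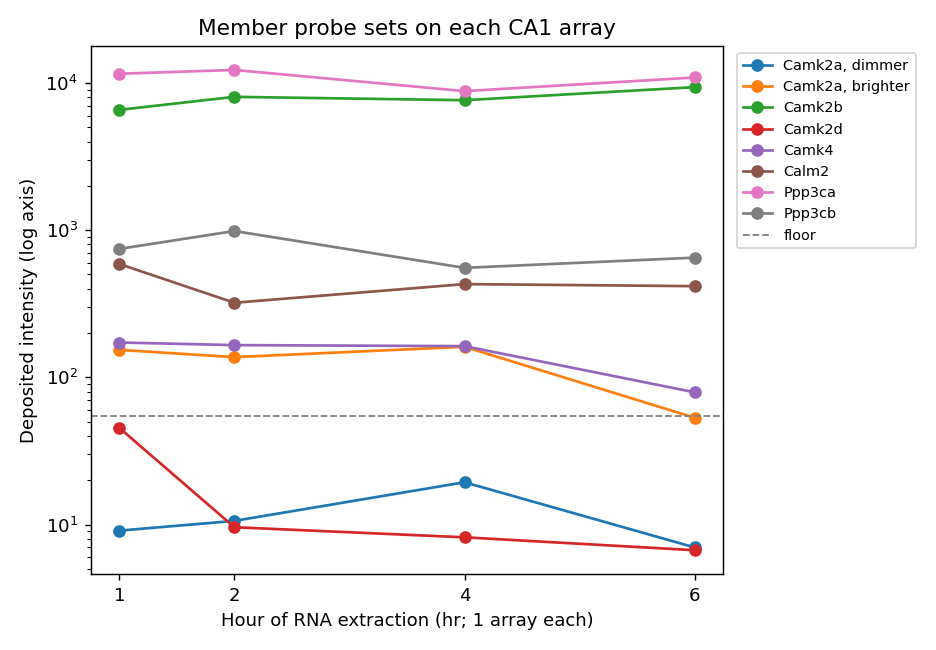
Deposited intensity (log axis) of the 8 member probe sets on the 4 arrays, by hour of RNA extraction, with 1 point for each array and no replicates. Ppp3ca and Camk2b are the 2 highest lines on every array, Camk4 and the brighter Camk2a probe set are lower at 6 hr than at the other hours, and Camk2d and the dimmer Camk2a probe set stay under the dashed floor of 54.7.

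The median intensity was 173 on the 2 hr array and 198 to 204 on the others, and 28.3% of values were under the floor at 2 hr against 23.4% to 24.8% elsewhere. The 3' to 5' signal ratio of Gapdh, which reflects how intact the labelled RNA is, was 7.56 on the 2 hr array and 4.84 to 6.25 on the others, and that for Actb ran from 2.99 at 6 hr to 3.44 at 1 hr. The tissue label was set against marker genes: the CA1 pyramidal neuron markers Wfs1 and Dcn read 1668 to 2594 and 2161 to 3935. Markers of neighbouring hippocampal fields also gave readings, Nnat of CA3 at 744 to 2015 and Calb1 of dentate granule neurons at 1481 to 1962. Each had the highest mean of its list. Other dentate markers were dimmer: Dsp read 252 to 327 and Lct 321 to 488, while Prox1 was under the floor on 2 arrays and Trpc6 on 3. Readings of different probe sets do not measure how much of each field was present. Markers of other cells were measured as well, among them Gad1 of inhibitory neurons at 3638 to 4730, Aldoc of astrocytes at 10061 to 11672 and Mobp of oligodendrocytes at 9821 to 14207, so the RNA was not of pyramidal neurons alone. In bulk RNA, fewer cells of a type and less RNA in each cell cannot be told apart.

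Readings below a floor of 54.7, which is the 25th percentile over the 4 arrays, were raised to that floor before log2 values were taken, and 7453 probe sets with a mean above the 40th percentile were tested. Of the 8 member probe sets 6 passed this filter, 1 each for Camk2a, Camk2b, Camk4, Calm2, Ppp3ca and Ppp3cb. The slope is the change in log2 intensity per hr, fitted with limma through all 4 arrays. Since no hour has a second array, no pair of hours can be tested, and an SD with n = 4 is a spread over hours and arrays together.

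Camk2b encodes the beta subunit of CaM kinase II, which binds actin filaments and anchors the kinase in dendritic spines. Its probe set read 6566, 8047, 7636 and 9367 on the 1, 2, 4 and 6 hr arrays. The highest array was thus the last and the lowest the first, 1.43-fold apart, but the 4 readings were not in time order. The mean was 7904 ± 1158 (SD, n = 4), and the reading lay between the 98.3 and the 98.9 percentile of its array on every occasion. The slope was 0.08 ± 0.06 log2 units per hr (SE), with a 95% interval from -0.08 to 0.24 (limma adjusted p = 1.00). Camk2b was the only tested member with a slope above 0, and its sign held in each of 15 alternative settings.

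Camk2a encodes the alpha subunit, known as an abundant protein of forebrain excitatory synapses. Its brighter probe set read 154, 137, 161 and 53.2 on the 1, 2, 4 and 6 hr arrays. The 3 earlier arrays lay close together and the 6 hr reading was under the floor, so the 6 hr array was at least 2.51-fold lower than the lowest of the others. The slope on the floored scale was -0.26 ± 0.11 log2 units per hr (SE; in limma, adjusted p = 0.972), and without the 6 hr array it was 0.04. The dimmer Camk2a probe set read 9.1, 10.6, 19.4 and 7.0 in order of hour, under the floor throughout. It therefore gives no second measurement of the 6 hr difference. Neither probe set was bright: the first lay between the 24.4 and the 45.5 percentile of its array, and the dimmer one between 2.30 and 8.50. These low readings stand beside a transcript that is known to be plentiful in CA1 pyramidal cells, and how well the probes bind it was not tested.

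Camk2d encodes the delta subunit, better known from heart muscle. It read 45.4, 9.6, 8.2 and 6.7 on the 1, 2, 4 and 6 hr arrays. All 4 readings were under the floor, where values have no order, so no fold is given and the gene was not tested. Without detection calls, whether Camk2d was above the background of the array is unknown.

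Camk4 encodes CaM kinase IV, the nuclear kinase, which phosphorylates CREB. Its probe set read 173, 166, 163 and 79.2 on the 1, 2, 4 and 6 hr arrays. The first 3 arrays were within 1.06-fold of each other, and the 6 hr array was 2.06-fold below the lowest of them. These readings were also in strictly falling order, as were those of 3.37% of all tested probe sets. The steps among the first 3 arrays were smaller than the difference between the median of the 2 hr array and the others. Their order therefore depends on how the arrays were scaled. The slope was -0.21 ± 0.08 log2 units per hr (SE), with a 95% interval from -0.42 to -0.0014. The unadjusted limma p was 0.049, which 5.13% of all tested probe sets also reached in one direction or the other, and the adjusted p was 0.963. The slope was -0.02 once the 6 hr array was left out, so its size rests on that array.

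Calmodulin itself was read by 1 probe set, for Calm2. It read 589, 321, 430.2 and 417 on the 1, 2, 4 and 6 hr arrays. The 1 hr array was 1.37-fold above the next and the 2 hr array 1.30-fold below the next, while 4 and 6 hr were nearly level. The mean was 439 ± 111 (SD, n = 4). The slope was -0.04 ± 0.09 log2 units per hr (SE; 95% interval -0.27 to 0.19, limma adjusted p = 1.00), and it was 0.09 without the 1 hr array. The direction of the Calm2 slope thus rests on 1 array.

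Calcineurin is a catalytic A subunit joined to a calcium-binding B subunit, and Ppp3ca and Ppp3cb encode the alpha and beta forms of the catalytic one. Ppp3ca read 11549, 12256.5, 8799 and 10891 on the 1, 2, 4 and 6 hr arrays, with a mean of 10874 ± 1491 (SD, n = 4). Ppp3cb read 746, 987, 555 and 651 on the 1, 2, 4 and 6 hr arrays, with a mean of 735 ± 185 (SD, n = 4). Both genes were highest at 2 hr, then at 1 hr, then at 6 hr, and lowest at 4 hr. The combination of a maximum at 2 hr and a minimum at 4 hr was held by 8.77% of all tested probe sets. From highest to lowest array the range was 1.39-fold for Ppp3ca and 1.78-fold for Ppp3cb. The slope of Ppp3ca was -0.04 ± 0.07 log2 units per hr (SE; 95% interval -0.22 to 0.14), and that of Ppp3cb was -0.09 ± 0.08 (SE; 95% interval -0.30 to 0.12). Neither passed limma's test (adjusted p = 1.00 for both).

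**Figure D2:**
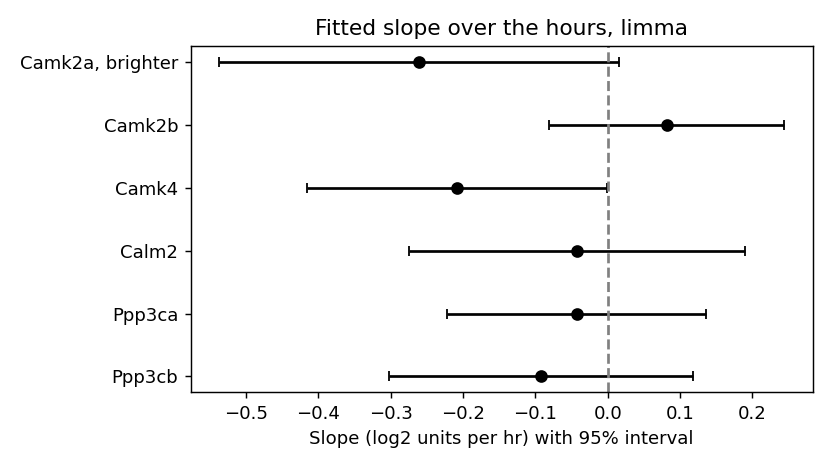
Slope over the hours (log2 units per hr) for the 6 tested member probe sets, with the point at limma's estimate and the bar its 95% interval over 4 arrays. Of the 6 intervals 5 include 0, and that of Camk4 ends at -0.0014 before any adjustment for the 7453 probe sets tested.

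Over the members together, 0 of 6 tested probe sets passed the limma threshold with Benjamini-Hochberg adjusted p-values, beside 0% of all 7453, and 1 of 6 had an unadjusted p under 0.05 beside 5.13% of all. Ordinary least squares also gave 0 after adjustment. Of the 6 slopes 5 were below 0, where 49.1% of all tested probe sets had a slope below 0. The median slope was -0.07 log2 units per hr for the members and 0.002 for all tested probe sets. The members were measured on the same 4 arrays and are not independent of each other.

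A separate count took probe sets that lay at least 1 log2 unit (2-fold) below each of the other 3 arrays. At 6 hr this held for 2 of 6 tested members, Camk2a and Camk4, and for 1.44% of all tested probe sets. No member stood apart in this way on another array or upwards, and over all arrays and both directions 7.53% of tested probe sets did. The Camk4 gap was 1.04 log2 units, just past the limit, and it was 0.97 after quantile normalization and 1.00 after a shift to a common median, so that 1 of 6 members remained in both settings. The Camk2a gap was at least 1.33 as deposited and 1.38 to 1.42 in those settings. Both are dim probe sets, and the median SD over all probe sets of like brightness was 0.66 log2 units, against 0.17 for those as bright as Camk2b.

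Cell-type markers differed between the same arrays. The summed intensity of 9 oligodendrocyte markers was 19955 at 6 hr and 25126 to 26458 on the other arrays, with 4 of 7 tested members lowest at 6 hr. That of 9 endothelial and mural markers was 1464 at 6 hr and 2044 to 2164 elsewhere, with 4 of 6 lowest. Tagln of this list went the other way, at 284 at 6 hr and 53.3 to 165 on the other arrays. The 5 CA1 pyramidal neuron markers summed to 7314.5 at 6 hr, inside the range of 6884 to 8754 on the other arrays, with 2 of 5 lowest at 6 hr. The 13 inhibitory neuron markers summed to 33694.5 at 6 hr and 35022 to 38428 elsewhere, with 3 of 12 lowest. Other sums were higher at 6 hr: 6 dentate granule markers summed to 3014 against 2415.5 to 2587 elsewhere, with 3 of 4 tested members highest. The sum of 9 microglial markers was 5225 against 4495 to 4864. Only 2 of 7 tested microglial markers were highest at 6 hr, however, and 3 were highest at 1 hr. The brightest of them, Csf1r, read 1970 at 6 hr and 1138.5 to 1832.5 on the other arrays. Of 8 tested astrocyte markers 0 were lowest at 6 hr, and their sum was 24603.5 against 24644 to 26729. The 6 skeletal muscle markers stood out on the 1 hr array, at 1378.5 against 648 to 751, with 4 of 4 tested highest there. The sum of 2 blood markers was also highest there, at 3959 against 1987 to 3181. So was that of 4 CA3 pyramidal neuron markers, at 3814.5 against 2350 to 2654, but of 3 tested only Nnat was highest at 1 hr. Nnat read 2015 at 1 hr and 744 to 982 on the other arrays, while Bok was highest at 4 hr and Socs2 at 2 hr. The part of these differences in the low Camk2a and Camk4 readings at 6 hr, or in the high Calm2 reading at 1 hr, was not tested.

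Over all 4 arrays, the dimmer members had the larger spread. The SD of log2 values was 0.21 for both Ppp3ca and Camk2b, 0.35 for Ppp3cb, 0.36 for Calm2, 0.54 for Camk4 and 0.74 for Camk2a. The median over all tested probe sets was 0.29, so the 2 brightest members varied less than that and the 4 others more. This order rests on the 6 hr array, without which the SD was 0.042 for Camk4, 0.12 for Camk2a, 0.15 for Camk2b, 0.25 for Ppp3ca, 0.42 for Ppp3cb and 0.44 for Calm2. Camk4 and Camk2a, the dimmest of the 6, then had the smallest spread. The tested probe sets were divided into 10 equal classes by mean level. The median SD of the member's own class was 0.17 for Ppp3ca and Camk2b, 0.24 for Ppp3cb, 0.30 for Calm2 and 0.66 for Camk4 and Camk2a. Over all 4 arrays Camk4 was the 1 tested member below the median of its own class, and the values of Camk4 and Camk2a relative to it depend on the 6 hr array as above.

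**Figure D3:**
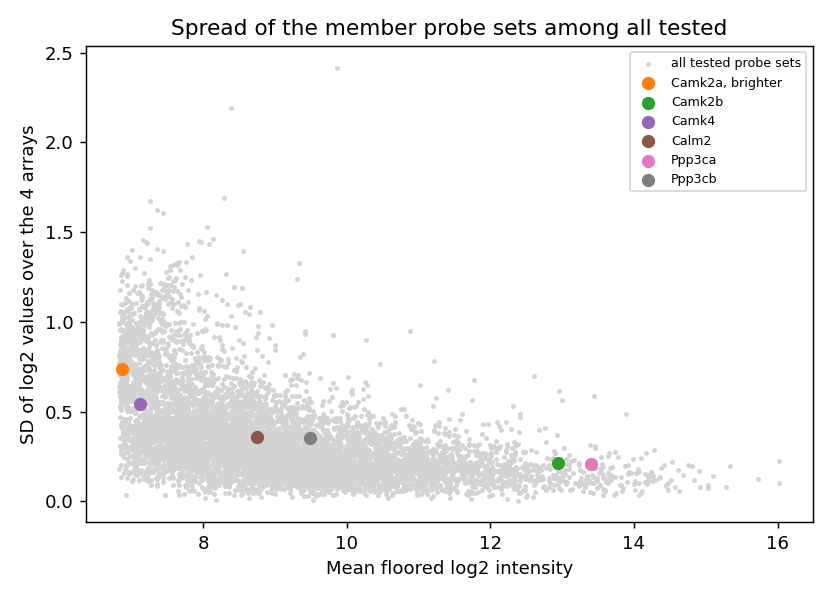
SD of floored log2 values over the 4 arrays against their mean, for 7453 tested probe sets (grey) and the 6 tested member probe sets (coloured). Among the grey points the SD is smaller at higher brightness. The members run from 0.74 for Camk2a, with its 6 hr value at the floor, to 0.21 for Ppp3ca, and without the 6 hr array these are 0.12 and 0.25.

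Differences taken within an array do not depend on how the arrays were scaled to each other by a common factor. Across all 15 pairs of tested members, the log2 difference between Ppp3ca and Ppp3cb varied least. It was 3.95, 3.63, 3.99 and 4.06 on the arrays in order of hour, a range of 0.43, and its SD of 0.19 was under that of either gene. An SD under that of both members was found for 2 of the 15 pairs. The other was Camk2a minus Camk4, at 0.22 against 0.74 and 0.54. For the beta subunit against calcineurin, Camk2b minus Ppp3ca, the difference was -0.81, -0.61, -0.20 and -0.22 in order of hour. Camk2b was thus 1.53-fold higher relative to Ppp3ca at 4 hr than at 1 hr. Only the size of such a change can be read, since the offset between 2 probe sets depends on their probes.

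The difference with the widest range was between the subunits of CaM kinase II, at 2.00 log2 units. Camk2a ranged nearly as widely against Ppp3ca (1.87), Ppp3cb (1.79) and Calm2 (1.70), so a wide range was not particular to the 2 subunits. Camk2a minus Camk2b was -5.42, -5.87, -5.56 and -7.42 on the arrays in order of hour, where Camk2a is at its floor and the true difference may be wider. The first 3 arrays were within 0.46 log2 units, and the alpha and beta readings moved apart at 6 hr. Camk2a minus Camk4 ranged over 0.52 log2 units with the 6 hr Camk2a reading set to the floor, and over 0.56 with no floor. Both genes were low on that array. Camk2b minus Calm2 was 3.48 at 1 hr and 4.15 to 4.65 later, the 1 hr array being the one with the highest Calm2 and the lowest Camk2b.

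**Figure D4:**
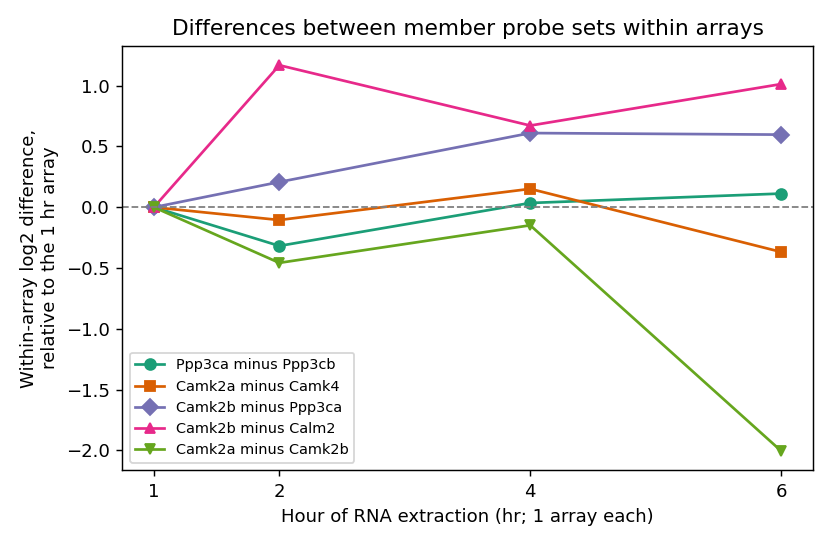
Log2 difference between 2 member probe sets on the same array, relative to its value on the 1 hr array, for 5 of the 15 pairs, with 1 point for each array. Ppp3ca minus Ppp3cb stays within 0.43 log2 units, while Camk2a minus Camk2b is 2.00 lower at 6 hr than at 1 hr with Camk2a at its floor.

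The tested member with the largest spread and no reading at the floor was Camk4, and the genes with the most similar pattern were looked up among 6709 other tested probe sets with 1 symbol. Likeness was the root mean square difference of log2 values, each centred on its own mean, over 4 arrays. The nearest were Lage3 (0.061 log2 units), the gene model Gm10046 (0.076) and Ccl1, a chemokine (0.081). Lage3 read 196 to 206 on the first 3 arrays and 99.1 at 6 hr, and Ccl1 read 178 to 210.4 and then 84.7. With 4 arrays and so many probe sets compared, near matches of this kind are a description of the low 6 hr reading.

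The wider pathway was described through 7 lists of genes that bind, regulate or follow calmodulin, with each gene represented by its brightest probe set. Of 112 listed genes 56 were tested, and 0 passed limma's test after adjustment (smallest adjusted p = 0.889), where 2 had an unadjusted p under 0.05 beside 5.13% of all tested probe sets. Their slopes were above 0 for 24 and below 0 for 32, and the median slope was -0.01 log2 units per hr. The median SD was 0.28, beside 0.29 over all tested probe sets. The SDs of single genes given below are loose: 17 of the 21 genes named by their SD moved by over 1.5 times in some setting, most when 1 array was left out. A shift to a common median took the SD of Mef2d from 0.12 to 0.23, of Itpkb from 0.15 to 0.25, of Kcnd2 from 0.19 to 0.29, of Dnm1 from 0.06 to 0.10, of Pnck from 0.12 to 0.03 and of Phkg2 from 0.24 to 0.15.

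Among 5 tested calmodulin binding buffers, 3 slopes were above 0 and 2 below. Nrgn encodes neurogranin, which holds calmodulin in dendritic spines. It read 4173, 1884, 3348 and 5709 on the 1, 2, 4 and 6 hr arrays, a 3.03-fold range. It was lowest on the 2 hr array, as Calm2 was, but highest at 6 hr, where Calm2 was not. Marcksl1, a membrane protein that binds calmodulin and actin, read 1453 at 2 hr and 676 to 920 on the others, and Basp1, a growth cone protein of the same kind, had the smallest SD of log2 values, 0.20.

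The relatives of the CaM kinases had 2 of 6 slopes above 0. Phkg1 and Phkg2, catalytic subunits of phosphorylase kinase, in which calmodulin is a built-in subunit, read 100.3 to 228 and 268 to 403. Both were highest at 1 hr, while Phkg1 was lowest at 6 hr and Phkg2 at 2 hr. Pnck, a neuronal relative of CaM kinase I, read 470 to 567 and had the smallest SD, 0.12.

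Calcineurin partners and targets had 4 of 10 slopes above 0. Ppp3cc, the third catalytic subunit, read 102, 239, 245 and 172.5 on the 1, 2, 4 and 6 hr arrays. Its order over the arrays differed from that shared by Ppp3ca and Ppp3cb, since it was lowest at 1 hr. Its 2 and 4 hr readings were nearly level, so which of them is the highest cannot be told. Ppp3r1, the regulatory B subunit, named here for its role after its values were seen, read 9290, 11009, 10956 and 8845 in order of hour. Rcan3, an inhibitor of calcineurin, read 150 at 4 hr, 266 and 275 at 2 and 1 hr and 392 at 6 hr. Mef2d, a transcription factor that calcineurin activates, had the smallest SD, 0.12, at 5519 to 6679.

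The calmodulin dependent enzymes and pumps had 6 of 13 slopes above 0. Adcy8, an adenylyl cyclase that calmodulin stimulates, read 121, 485, 314 and 220 on the 1, 2, 4 and 6 hr arrays, a range of 4.00-fold. Iqgap1, a scaffold that binds calmodulin, read 94.4, 117, 166.5 and 194 in order of hour. These values in time order had an unadjusted limma p of 0.020 and an adjusted p of 0.889, and another Iqgap1 probe set read 185 on the first array and 139.5 on the last. Itpkb, an inositol trisphosphate kinase, had the smallest SD, 0.15.

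CREB and its relatives had 1 of 5 slopes above 0. Creb1, the gene of CREB itself, is not among these 5, since none of its probe sets passed the filter. Crem read 282 at 1 hr and 160 to 174 later, and Atf4 read 2348 at 1 hr and 1406 to 1608 later. A dimmer Crem probe set was highest at 6 hr instead, at 139. Both genes, by their brightest probe sets, were highest on the 1 hr array. In the deposited values Camk4 was also highest there, by a margin small enough to depend on the scaling of the arrays. Crebbp, a coactivator that CREB recruits, had the smallest SD, 0.20.

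Synaptic partners and substrates of CaM kinase II had 5 of 9 slopes above 0. Tiam1, an activator of Rac that binds the kinase, read 289 at 1 hr and 441 to 629 later, while its dimmer probe set was lowest at 6 hr instead. Homer1, a scaffold of the postsynaptic density, read 78.4 at 2 hr and 123 to 154.5 on the others. Kcnd2, a potassium channel subunit of dendrites, had the smallest SD, 0.19, by its brighter probe set, while its dimmer one read 122 to 253 with an SD of 0.51. Grin2b, the NMDA receptor subunit to which the kinase binds, lay under the floor on the 6 hr array, as Camk2a did, and read 121 to 214 on the others. Grin2a, another such subunit, was low at 2 hr instead, under the floor against 208 to 269 on the others. Both were named after their values were seen.

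Phosphatases and substrates next to calcineurin had 3 of 8 slopes above 0. Ppp1r1a, an inhibitor of protein phosphatase 1 that calcineurin can dephosphorylate, read 412, 457, 308 and 241 in order of hour, with an unadjusted limma p of 0.042 and an adjusted p of 0.952. Bad, an apoptosis protein and calcineurin substrate, read 331 at 2 hr and 461 to 551 on the others. Its dimmer probe set was low at both 2 and 6 hr, at 110 and 114, and read 195 at 1 hr and 167 at 4 hr. Dnm1 encodes dynamin, the endocytic protein that calcineurin dephosphorylates at nerve endings. By its brighter probe set, at 24293 to 26479, it had the smallest SD in its list, 0.06. Its other probe set read 16976 to 21421 with an SD of 0.14.

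**Figure D5:**
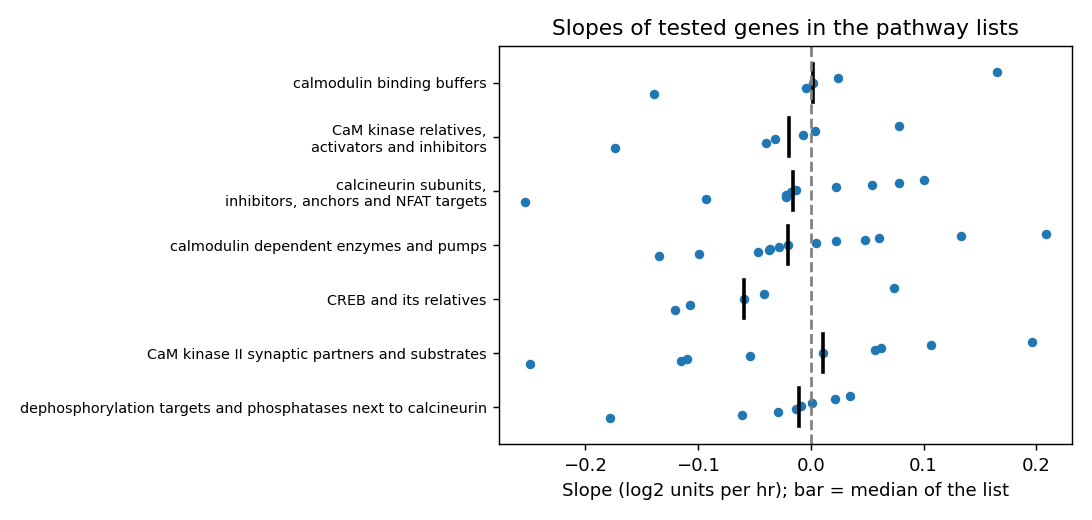
Slope over the hours (log2 units per hr) of each of the 56 tested genes in the 7 pathway lists, with 1 point for each gene and a bar at the median of the list. Slopes lie on both sides of 0 in every list, and the medians run from -0.06 for CREB and its relatives to 0.01 for synaptic partners of CaM kinase II.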

How the data were processed

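Single-channel expression arrays of 4 CA1 samples were used. The authors deposited 1 linear intensity for each probe set and array; the labels state no software, summary method or detection call. The mean after trimming 2% at each end was 500.3 on every array, so the deposited intensity values had been scaled to a common level. The number of arrays limits the precision.

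Symbols came from the platform's annotation table, which gave 10855 probe sets 1 symbol, 396 several and 1237 none. All 7 genes matched RefSeq (GRCm38.p6) through their Entrez identifiers. Tests excluded 66 control probe sets.

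Values were floored at 54.7, the 25th percentile, and probe sets above the 40th percentile of mean log2 were tested in R 4.3.3 with lmFit and eBayes of limma 3.58.1 (slope on the hour, two-sided, Benjamini-Hochberg over 7453 probe sets, threshold 0.05). This leaves 2 residual degrees of freedom. No source says that the arrays hold separate animals, so the p-values reflect no more than the spread among 4 arrays, which may be technical. The fit was tested on simulated data. Other values were computed in Python 3.11.15 with pandas 2.3.3.

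Besides all members, the genes named are, in each pathway list, the 2 with the largest and the 1 with the smallest SD among tested genes never at the floor, up to 3 of the brightest markers of a cell type, and the 3 nearest patterns. Members, lists and rules were chosen with earlier results of these data known. Alternatives were quantile normalization, a common median, other floors and filters, other time scales and variance models, and each array left out.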

Additional observations from a re-analysis of the deposited data

How the results depend on the processing

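In each of the 15 alternative fits, 0 members, 0 pathway genes and 0 probe sets overall passed limma's adjusted threshold. Taking all probe sets of each pathway gene also gave 0. At an unadjusted p under 0.05, Camk4 passed in 5 of its 14 alternatives and Camk2a in 3 of 13, since neither entered every fit. Leaving out 1 array at a time, the slope ran from -0.10 to 0.094 log2 units per hr for Calm2 (above 0 without 1 hr) and from -0.33 to 0.037 for Camk2a (above 0 without 6 hr). The other 4 members kept the sign of their slope in every alternative that tested them. The median SD of the members was 0.36, and 0.20 to 0.37 with 1 array left out, lowest without 6 hr. The count of members standing apart at 6 hr was 1 rather than 2 after quantile normalization and 1 after a common median, which moved the arrays' log2 medians by up to 0.17 (the 2 hr array). No paired analysis was possible because each hour has a single array. With 1 array an hour and no detection calls, a difference at 6 hr in a dim probe set has no replicate check.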
